A study of Ovis aries with 20 samples.

Results

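The step from 80 to 100 days gestation in the WT fetal sheep pancreas was followed across all genes in 4 of the 20 pancreas libraries of the series, 2 from WT fetuses at each age. These 4 were chosen by genotype and age from the sample labels, and the other 6 WT libraries (65 days, 120 days and term) were used to estimate the spread between animals. WT animals were American Romney sheep bred without any edit. The CFTR-/- animals, which were cloned by nuclear transfer from fetal fibroblasts of a single male line edited in exon 2 of CFTR, enter here only where the same step is set beside the WT step. Each library was made from bulk RNA of tissue cut from the middle of the pancreas of 1 fetus, so exocrine, endocrine, ductal, stromal, vascular and blood cells contributed together, and fewer cells of a type cannot be told apart from less RNA per cell. Within each age the 2 WT animals share the stem of their animal label, and whether they were littermates was not stated, so that pregnancy and age cannot be told apart. The sex of the WT fetuses was not given. Pancreatic identity was plain in all 4 libraries, where the chymotrypsinogen LOC101117443 was at 44900 CPM or more and the glucagon gene GCG at 5330 CPM or more.

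The exocrine pancreas is built of acini, whose cells make and store digestive enzymes as zymogens, and of ducts that carry the secretion away. Acinar cells are filled with rough endoplasmic reticulum, and the chaperones and sensors of the unfolded protein response keep pace with the load of secretory protein. In the fetus, multipotent epithelial progenitors give rise to acinar, ductal and endocrine cells, with a transient wave of NEUROG3-positive endocrine precursors, while the surrounding mesenchyme supplies growth signals and matrix.

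The 4 libraries held 58758258 and 61537944 counted reads in the 80-day animals 1 and 2, and 62714829 and 61325786 in the 100-day animals. Values are CPM, the reads of a gene relative to the total of its library after trimmed mean (TMM) scaling, under which 1 counted read was worth 0.0122 to 0.0213 CPM. Across genes, log2 CPM of the 2 animals correlated at 0.962 at 80 days and 0.944 at 100 days, and the median absolute log2 difference between them was 0.29 and 0.47. A single gene, LOC101117443, which encodes a chymotrypsinogen (CTRB1), took 5.55% and 8.22% of all counts at 80 days and 23.4% and 18.5% at 100 days. Scaling by total counts alone therefore moved the median gene from -0.01 to -0.51 on the log2 scale, and lowered the fold change of single genes by 0.28 to 0.61 (1st to 99th percentile). Under it the genes past an unadjusted p of 0.01 with a log2 fold change of 0.58 were 36 higher and 101 lower at 100 days, against 84 higher and 34 lower with TMM scaling. Fold changes below are 100 over 80 days with TMM scaling, so they stand relative to this median. Log2 values between 0 and about 0.5 change sign on total counts alone.

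Of 24478 genes in the tables, 18714 were tested, and no gene passed an adjusted p of 0.01 with a log2 fold change of 0.58 in edgeR's quasi-likelihood test (0.0% called). An unadjusted p under 0.05 was reached by 586 genes (3.13%), while at the same adjusted threshold 20 genes passed with DESeq2 (Wald test) and 12 with the likelihood ratio test of edgeR. At the unadjusted p of 0.01, 118 genes passed (0.631%), of which 84 were higher (0.449%) and 34 lower (0.182%) at 100 days. Single animals moved this count, which was 32 without 100-day animal 1, 207 without 100-day animal 2, 31 without 80-day animal 1 and 48 without 80-day animal 2, and 207 and 198 without 120-day animals 1 and 2, which enter only through the spread. In simulated data of this comparison (18350 genes), 216 genes left unchanged passed the same unadjusted p and fold change. The 118 are thus not more than the unchanged genes that passed in this simulation. It was a single run, in which each unchanged gene had the same mean at all ages. A log2 fold change above 0 was found in 48.7% of the genes tested. In 34.8% of all genes tested the animals of the 2 ages did not overlap, with 16.3% higher and 18.4% lower at 100 days.

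SYCP2L, a paralog of the synaptonemal complex protein SYCP2, had the smallest p-value. It was at 0.0827 and 0.0489 CPM in the 80-day animals, which were 6 and 4 reads, and at 13.7 and 21.0 CPM in the 100-day animals. The ages were far apart, with a log2 fold change of 8.02 ± 0.77 (SE) and an adjusted p of 0.0149 in edgeR's quasi-likelihood test. The gene lies on chromosome 20 from 44125572 to 44176400 (Oar_v4.0). It did not climb steadily with age, since both 65-day animals were at 3.88 and 3.59 CPM, above the 80-day animals. At 120 days it was at 59.4 and 17.8 CPM and at term at 52.5 and 36.6 CPM. In the list of 14 measured meiosis genes the median log2 fold change was 0.07 (-0.45 on total counts alone), so that SYCP2L was not accompanied by the list.

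CLDN18, a tight junction claudin of stomach and lung epithelium, was at 19.9 and 20.6 CPM in the 80-day animals and 89.5 and 66.7 CPM in the 100-day animals. Its log2 fold change was 1.95 ± 0.29, with an unadjusted p of 8.72e-05 in edgeR's quasi-likelihood test, and it lies on chromosome 1 from 249017793 to 249042725. The 80-day animals were nearly alike and both 100-day animals stood well above them. CES1 (LOC101116336), a liver and gut carboxylesterase, was at 9.0 and 16.4 CPM and then at 182 and 76.0 CPM (log2 fold change 3.35 ± 0.54). SMPDL3A, an acid sphingomyelinase-like phosphodiesterase, was at 5.70 and 5.34 CPM and then at 54.9 and 22.6 CPM (2.81 ± 0.52). In both of these genes 100-day animal 1 was the highest of the 4, by more than 2-fold over animal 2. MEP1B, the beta subunit of the brush border protease meprin, had the same order, at 0.234 and 0.257 CPM and then at 5.09 and 1.77 CPM. PARP3, a poly(ADP-ribose) polymerase of DNA repair, differed less between the 100-day animals, at 1.65 and 1.10 CPM against 8.37 and 7.08 CPM (2.49 ± 0.43).

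Several secreted plasma proteins were among the leading genes. PROC, which encodes the anticoagulant protease protein C, was at 10.8 and 8.59 CPM at 80 days and at 31.8 and 27.9 CPM at 100 days (1.62 ± 0.31). VTN, the adhesive plasma protein vitronectin, was at 45.3 and 40.9 CPM and then at 135 and 90.4 CPM (1.39 ± 0.29). SERPINA5, a serine protease inhibitor of protein C, was at 71.2 and 78.3 CPM and then at 229 and 132 CPM (1.27). In each of the 3, both 100-day animals were above both 80-day animals. KLF9, a zinc finger factor induced by glucocorticoid and thyroid hormone, was at 4.86 and 7.04 CPM and then at 19.1 and 17.9 CPM (1.63 ± 0.36). The list of 17 glucocorticoid response genes as a whole had a median of -0.14, with 8 of 17 higher.

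Among the genes lower at 100 days the smallest p-value belonged to LOC101103227, which the study's tables name only as an analog of the mouse C-type lectin CLEC2H. It was at 4.66 and 2.82 CPM at 80 days and at 0.213 and 0.0461 CPM (10 and 3 reads) at 100 days (log2 fold change -4.96 ± 0.86). ETV4, an ETS factor that FGF signalling induces in budding epithelia, was at 10.9 and 14.2 CPM and then at 3.30 and 3.47 CPM (-1.89 ± 0.43, unadjusted p = 0.00183 in edgeR's quasi-likelihood test). The 2 animals of each age were close, and the ages were far apart. LEFTY2, a secreted antagonist of Nodal, was at 19.7 and 38.1 CPM and then at 3.11 and 4.34 CPM (-2.95 ± 0.70). CDCA7, a MYC and E2F target of dividing cells, was at 32.9 and 38.6 CPM and then at 15.1 and 16.2 CPM (-1.19 ± 0.29). VWA2, an extracellular matrix protein of basement membranes, was at 4.78 and 5.05 CPM and then at 0.575 and 1.24 CPM, and CHAT, the enzyme that makes acetylcholine, at 0.923 and 1.5 CPM and then at 0.213 and 0.246 CPM. CA5A, a mitochondrial carbonic anhydrase of liver, was at 5.13 CPM in 80-day animal 1 but at 0.269 CPM in animal 2, so its difference rests mostly on that animal.

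**Figure D1:**
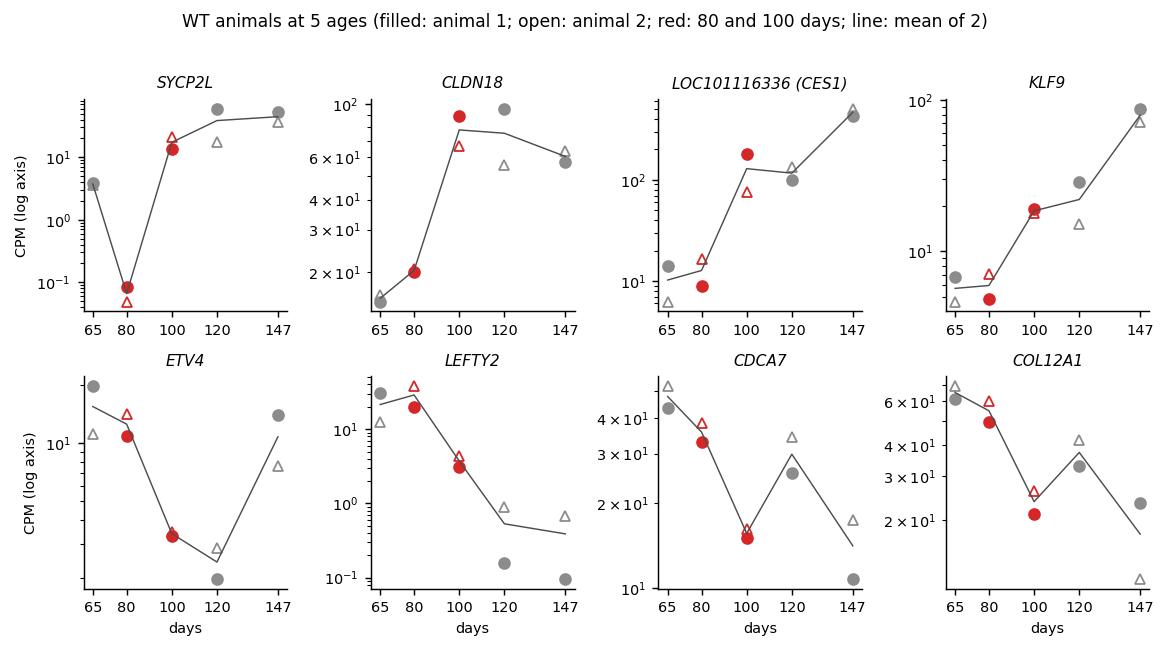
CPM on a log axis (y) of 8 genes in the 2 WT animals at each of the 5 ages (x), 1 point per animal and a line through the means. SYCP2L is at 0.0827 and 0.0489 CPM in the 80-day and at 13.7 and 21.0 CPM in the 100-day animals, while ETV4, LEFTY2, CDCA7 and COL12A1 are lower at 100 than at 80 days in both animals.

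All 22 measured acinar enzymes and granule proteins were higher in both 100-day animals than in both 80-day animals, as were 16.3% of all genes. Their median log2 fold change was 1.56 (range 0.50 to 2.88; 1.00 on total counts alone), against -0.01 over all genes, and 7 of the 22 had an unadjusted p under 0.05 in edgeR's quasi-likelihood test (3.13% of all genes) while none passed the unadjusted p of 0.01. Summed over the list, the level was 75700 and 92500 CPM in the 80-day and 399000 and 236000 CPM in the 100-day animals, a ratio of means of 3.77. Without LOC101117443 the sums were 30800 and 30600 CPM and then 86500 and 61200 CPM, a ratio of 2.41. Without 100-day animal 1, which had the higher enzyme sum, the median was 1.23 and all 22 remained higher.

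The proteases of the list covered most of its counts. LOC101117443 (CTRB1, chromosome 14 from 1938235 to 1944246) was at 44900 and 61900 CPM at 80 days and at 312000 and 174000 CPM at 100 days (log2 fold change 2.19 ± 3.28). Both 100-day animals were well above both 80-day animals, but the fitted error of this gene was large and its unadjusted p was 0.521 in edgeR's quasi-likelihood test. The call on it turned on the fit, with an adjusted p of 2.62e-06 by DESeq2. Trypsinogen PRSS2 (LOC101112559), whose product activates the other zymogens, was at 1670 and 1530 CPM and then at 6990 and 4710 CPM (1.87 ± 0.81). Carboxypeptidase CPA1 (LOC101117326) was at 8340 and 7130 CPM and then at 22000 and 15600 CPM (1.28), and CPB1, which trims basic residues, at 67.3 and 76.0 CPM and then at 464 and 337 CPM (2.48). Members of the trypsinogen, chymotrypsinogen and elastase families are close copies in the genome, and reads shared between copies may have been divided among them by the counting.

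Lipases and amylase had the same order. CLPS, the colipase that anchors pancreatic lipase to fat droplets, was at 527 and 1460 CPM at 80 days and at 9890 and 2950 CPM at 100 days (2.7 ± 0.86, unadjusted p = 0.0119 in edgeR's quasi-likelihood test). Its animals differed by more than 2-fold within each age. AMY2B (LOC101118831), a pancreatic amylase, was at 911 and 743 CPM and then at 5820 and 3600 CPM (2.51 ± 0.88). PLA2G1B, a secreted phospholipase, was at 476 and 327 CPM and then at 1360 and 925 CPM (1.51). PNLIPRP2, a lipase-related protein of milk fat digestion, differed less, at 5160 and 5740 CPM and then at 11300 and 9360 CPM (0.93). Pancreatic lipase itself, PNLIP, was scarce at both ages, at 0.427 and 0.281 CPM and then at 1.62 and 1.46 CPM. Of the granule proteins, SYCN, a syncollin of the zymogen granule membrane, was at 102 and 80.9 CPM and then at 793 and 367 CPM (2.67). REG1A, a secreted lectin of acinar cells, was at 15.8 and 11.3 CPM and then at 101 and 99 CPM (2.88), whereas the granule membrane protein GP2 had the smaller difference of 0.51, from 3460 and 3650 CPM to 4450 and 5640 CPM.

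Per kilobase of gene model, LOC101117443 was the most abundant gene at both ages, with means of 23400 CPM per kb at 80 days and 107000 CPM per kb at 100 days. CEL, the bile salt-activated lipase, moved from rank 25 to rank 8, and CELA3B (LOC101103454), an elastase, from rank 36 to rank 10. The other 7 of the first 10 genes at 100 days were ribosomal proteins.

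**Figure D2:**
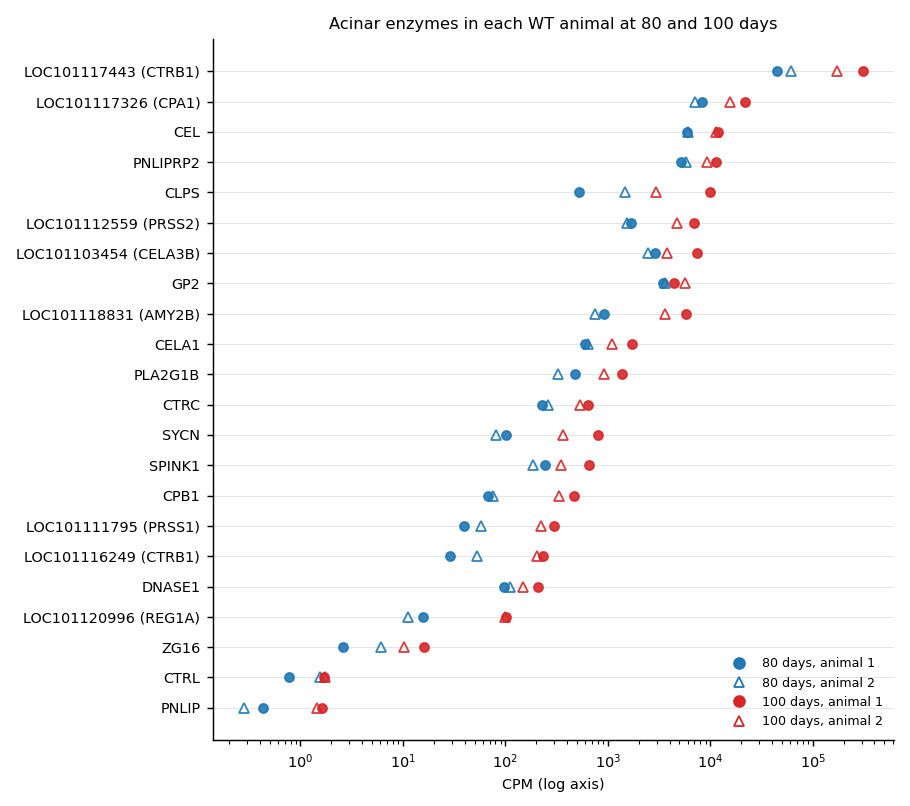
CPM on a log axis (x) of the 22 measured acinar enzymes and granule proteins (y) in each of the 4 WT animals, 1 point per animal. Both 100-day points lie to the right of both 80-day points for all 22 genes, and 100-day animal 1 is above 100-day animal 2 in 20 of them.

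The genes around enzyme secretion differed less. Of 17 acinar accessory genes, 16 were higher, with a median of 0.79 (0.24 on total counts alone), and in 15 the animals did not overlap, against 16.3% of all genes. PDIA2, the protein disulfide isomerase of the pancreas, was at 685 and 1120 CPM at 80 days and at 5410 and 2860 CPM at 100 days (2.20 ± 0.53, unadjusted p = 0.00241 in edgeR's quasi-likelihood test). DPEP1, a membrane dipeptidase, was at 139 and 124 CPM and then at 273 and 201 CPM (0.85 ± 0.24). For both genes the 100-day animals were above the 80-day animals. NUPR1, a stress-induced chromatin protein of acinar cells, was at 576 and 491 CPM and then at 1900 and 699 CPM, with animal 1 far above animal 2. The 8 acinar transcription factors had a median of 0.25, which became -0.21 on total counts alone, 0.65 without 100-day animal 1 and 0.03 without 100-day animal 2. The acinar factors PTF1A and BHLHA15 had no counts under those symbols and were not among the 8. XBP1, which drives the secretory machinery, was at 500 and 586 CPM and then at 1180 and 854 CPM (0.91 ± 0.40). RBPJL (LOC106990174), a subunit of the acinar PTF1 complex, was at 252 and 263 CPM and then at 283 and 279 CPM (0.12). A second locus that the study also names RBPJL (LOC101111217) was at 35.8 and 52.8 CPM and then at 60.5 and 94.1 CPM (0.80), and reads of the copies may be shared. NR5A2, a nuclear receptor of acinar cells, was at 57.8 and 70.7 CPM and then at 75.4 and 77 CPM (0.25).

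**Figure D3:**
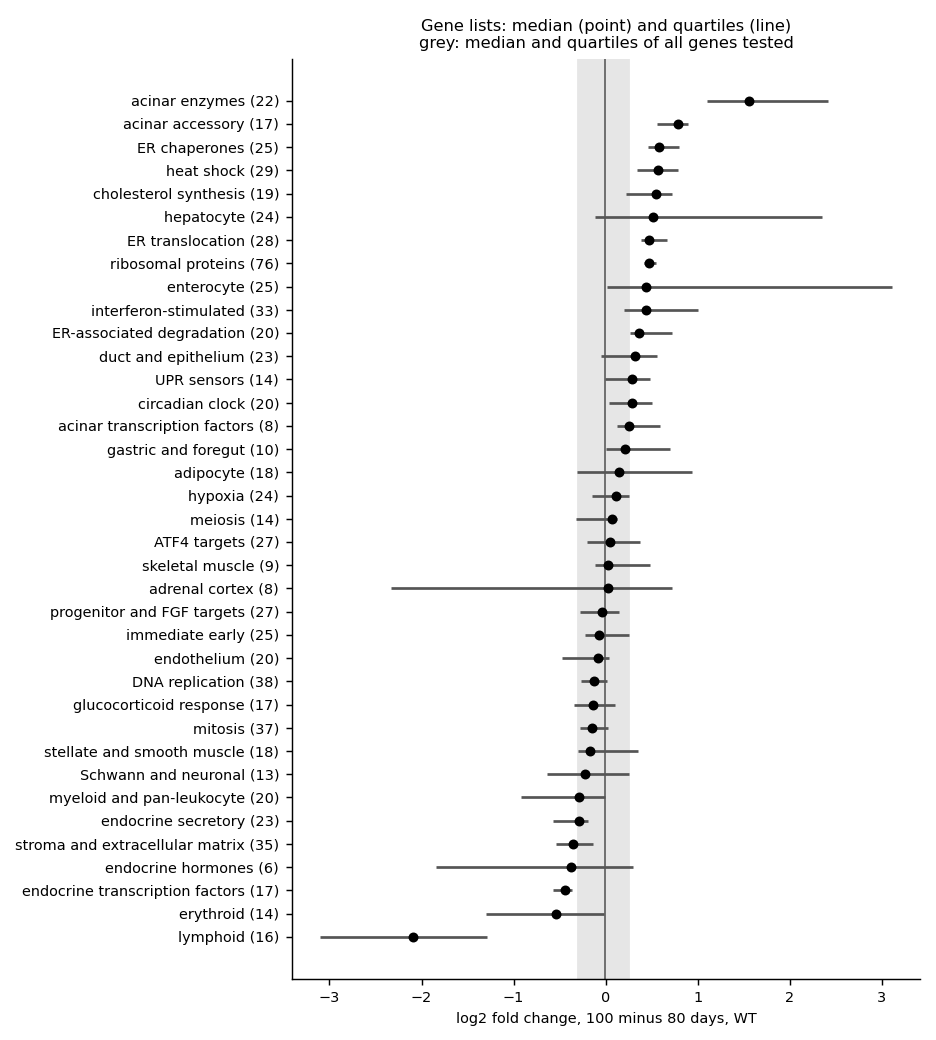
Median (point) and quartiles (bar) of the log2 fold change, 100 over 80 days, of the genes tested in each of 37 lists (y), with the median of all genes tested as a vertical line at -0.01. The acinar enzymes lie highest at 1.56 and the lymphoid genes lowest at -2.09, and on total counts alone 16 of the 37 medians change sign.

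Endoplasmic reticulum chaperones and foldases were higher in 23 of 25, with a median of 0.58 that was 0.05 on total counts alone. The 80-day sums were 6700 and 6400 CPM and the 100-day sums 11200 and 8700 CPM, and in 19 of the 25 genes the animals did not overlap, all higher, against 16.3% of all genes. DNAJB9, a chaperone cofactor that restrains the sensor IRE1, was at 69.5 and 77 CPM at 80 days and at 158 and 146 CPM at 100 days (1.06 ± 0.26, unadjusted p = 0.00288 in edgeR's quasi-likelihood test). HSPA5, the main chaperone of the compartment, was at 728 and 684 CPM and then at 1280 and 1170 CPM (0.80 ± 0.54). In both the 2 animals of each age were close. SDF2L1, a cofactor of HSPA5, was at 26.4 and 20.4 CPM and then at 81.2 and 34.0 CPM (1.30), and FKBP11, a prolyl isomerase of secretory cells, at 209 and 172 CPM and then at 559 and 255 CPM, each with 100-day animal 1 far above animal 2. Of 28 genes of translocation into the endoplasmic reticulum, 27 were higher with a median of 0.47, or -0.06 on total counts alone and 0.24 without 100-day animal 1. SEC11C, a subunit of the signal peptidase, was at 65.8 and 58.9 CPM and then at 186 and 93.9 CPM (1.17 ± 0.32).

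HERPUD1, which brings misfolded proteins to their degradation complex, had the smallest p-value in the lists of the endoplasmic reticulum and unfolded protein response. It was at 81.1 and 85.0 CPM at 80 days and at 271 and 218 CPM at 100 days. Its log2 fold change was 1.56 ± 0.28, with an unadjusted p of 0.000334 in edgeR's quasi-likelihood test. The gene lies on chromosome 14 from 24326126 to 24337298. The animals of the 2 ages were well apart. The degradation list had 18 of 20 higher with a median of 0.37 (-0.13 on total counts alone), and SYVN1, its ubiquitin ligase, was at 56.7 and 61.9 CPM and then at 102 and 99.5 CPM (0.76). The 14 sensors and regulators of the unfolded protein response had a median of 0.28 (-0.26 on total counts alone, 0.11 without 80-day animal 1). Targets of the ATF4 arm did not share this order, with 17 of 27 higher and a median of 0.05 (-0.45 on total counts alone). DDIT3, the stress factor CHOP, was at 12.3 and 11 CPM and then at 13.1 and 14.0 CPM (0.22), and ATF3 was at 4.90 and 2.41 CPM and then at 1.17 and 1.97 CPM (-1.20). PPP1R15A, which reverses the eIF2 alpha phosphorylation of this arm, was higher, at 49.6 and 42.3 CPM and then 94.6 and 69.3 CPM (0.83 ± 0.24), as was NUPR1 (1.28), which is also in this list.

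Of 29 heat shock and cytosolic chaperone genes, 26 were higher, with a median of 0.56 that was 0.07 on total counts alone. Their animals did not overlap in 23 genes, all higher (16.3% of all genes), and 4 of the 29 (HSPA6, DNAJB1, BAG3 and DNAJB4) passed the unadjusted p of 0.01, against 0.449% of all genes. HSPA6, an inducible HSP70 on chromosome 1 from 110875925 to 110880526, was at 3.29 and 2.37 CPM at 80 days and at 55.3 and 32.2 CPM at 100 days (3.95 ± 0.66, unadjusted p = 0.000203 in edgeR's quasi-likelihood test). DNAJB1, its HSP40 partner, was at 54.4 and 56.0 CPM and then at 182 and 201 CPM (1.80 ± 0.38). BAG3, a co-chaperone of HSP70 in selective autophagy, was at 8.51 and 10.1 CPM and then at 35.4 and 21.3 CPM (1.61 ± 0.39). In all 3 both 100-day animals were above both 80-day animals. HSPA1A was at 274 and 424 CPM and then at 1140 and 1740 CPM (2.05 ± 0.79), and HSPA1B (LOC494436) at 254 and 392 CPM and then at 945 and 1520 CPM, but these are near-identical copies whose reads may have been divided. The constitutive members were not alike, since HSP90AB1 was at 984 and 867 CPM and then at 912 and 871 CPM (-0.05), and HSPA8 at 282 and 308 CPM and then at 281 and 549 CPM. HSF1, the factor that induces these genes, had a log2 fold change of -0.11. Beside younger animals, 21 of the 29 genes were lower in both 80-day than in both 65-day animals and 1 was higher. The share over all genes was not computed, so the count cannot be read as a trait of these genes. This order was not particular to the list, since 27 of 35 stroma, 26 of 37 mitosis and 19 of 38 DNA replication genes had it. In other lists it was found in 11 of 25 endoplasmic reticulum chaperones, 2 of 76 ribosomal protein and 1 of 17 acinar accessory genes. HSPA6 was at 25.6 and 22.0 CPM at 65 days. HERPUD1, HSPA6, DNAJB1 and BAG3 were also picked out by the study from these libraries, so their direction is not independent evidence.

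Of 33 measured interferon-stimulated genes, 32 were higher, with a median of 0.44 (-0.08 on total counts alone), and 5 passed the unadjusted p of 0.01 (RSAD2, ISG15, OAS1, XAF1 and DDX58), against 0.449% of all genes. RSAD2, the antiviral enzyme viperin, was at 0.427 and 0.208 CPM at 80 days and at 3.07 and 2.38 CPM at 100 days (3.11 ± 0.76). ISG15, a ubiquitin-like modifier, was at 1.67 and 1.06 CPM and then at 14.4 and 4.91 CPM (2.82), and OAS1, which activates RNase L, at 4.93 and 1.82 CPM and then at 17.9 and 13.5 CPM (2.22). These genes were scarce, and both 100-day animals were above both 80-day animals in each. IFI6, a mitochondrial protein, was at 15.4 and 10.1 CPM and then at 78.4 and 29.9 CPM (2.09), XAF1 at 1.87 and 2.58 CPM and then at 8.71 and 4.56 CPM (1.56), and DDX58, the viral RNA sensor RIG-I, at 4.46 and 3.39 CPM and then at 12.7 and 9.21 CPM (1.48). In every one of these genes 100-day animal 1 was the highest of the 4.

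The cholesterol synthesis list had 17 of 19 genes higher, with a median of 0.55 (0.02 on total counts alone). CYP51A1 (LOC101113583), the lanosterol demethylase, was at 22.1 and 27.0 CPM at 80 days and at 63.1 and 48.2 CPM at 100 days (1.18 ± 0.30, unadjusted p = 0.00352 in edgeR's quasi-likelihood test). MSMO1, the next demethylase of the pathway, was at 62.6 and 65.2 CPM and then at 136 and 98.5 CPM (0.87), SQLE, the squalene epoxidase, at 25.1 and 25.6 CPM and then at 44.5 and 35.4 CPM, and INSIG1, which retains the sterol sensor in the endoplasmic reticulum, at 14.3 and 21.2 CPM and then at 40.6 and 31.9 CPM. The animals of the 2 ages did not overlap in 15 of the 19 genes, all higher, against 16.3% of all genes. All 76 measured ribosomal protein genes were higher, with a median of 0.47, but the median was -0.12 on total counts alone and -0.06 without 100-day animal 1, with 24 of 76 then higher. Both 100-day animals were above both 80-day animals in only 5 of the 76 genes (6.58%), against 16.3% of all genes. Their sums were 159000 and 122000 CPM in the 80-day and 258000 and 137000 CPM in the 100-day animals, and animal 1 was above animal 2 in 76 of 76 genes at each age.

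Endocrine genes lay on the other side of the all-gene median. Of 17 endocrine transcription factors 2 were higher (HHEX by 0.01 and the scarce MAFA), with a median of -0.45 that was -0.11 without 100-day animal 1, and in 11 of the 17 the animals did not overlap, all lower, against 18.4% of all genes. None passed the unadjusted p of 0.01. PAX4, which favours beta and delta cell fate, was at 12.8 and 17.1 CPM at 80 days and at 2.64 and 3.84 CPM at 100 days (-2.20 ± 0.75, unadjusted p = 0.0167 in edgeR's quasi-likelihood test). NEUROG3, the factor that commits progenitors to the endocrine lineage, was at 4.96 and 4.90 CPM and then at 0.575 and 1.75 CPM (-2.04 ± 0.80). Both genes were lower in both 100-day animals than in either 80-day animal. INSM1, a repressor of endocrine precursors, was at 82.0 and 83.4 CPM and then at 39.3 and 65.2 CPM. NEUROD1 was at 38.9 and 32.4 CPM and then at 24.9 and 27.5 CPM.

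Among hormones, GCG, the glucagon gene, was the most abundant, at 9750 and 7350 CPM at 80 days and at 5330 and 6360 CPM at 100 days (-0.55). SST, somatostatin, was at 1370 and 912 CPM and then at 1850 and 1300 CPM (0.47, within the shift between scalings), and its ages overlapped. PPY, pancreatic polypeptide, was higher in animal 1 than in animal 2 at each age, at 95.4 and 23.9 CPM and then at 170 and 34.7 CPM. GHRL, ghrelin, was at 30.6 and 0.856 CPM and then at 5.60 and 1.04 CPM, so that 80-day animal 1 alone was high. GIP, an incretin of gut K cells, was at 6.53 and 21.8 CPM and then at 4.28 and 0.461 CPM (-2.63). IAPP was at 0 CPM in 3 of the animals and at 0.0154 CPM, which is 1 read, in the other, and insulin was not analysed here. The hormone list therefore had no common direction, with a median of -0.38 that was 0.23 without 80-day animal 1. Of 23 genes of hormone secretion 3 were higher, with a median of -0.30 that was -0.15 without 80-day animal 1. The animals did not overlap in 8 lower genes (34.8%, against 18.4% of all genes) and 2 higher genes (8.7%, against 16.3%). The list summed to 3210 and 2500 CPM at 80 days and to 2340 and 2330 CPM at 100 days. Unlike most of the list, the potassium channel subunit KCNJ11 was nearly level (0.02). The glucose transporter SLC2A2 was higher, at 1.68 and 4.11 CPM and then at 6.69 and 11.9 CPM (1.68). The incretin receptor GLP1R, which acinar cells also carry, was likewise higher, at 53.3 and 64.2 CPM and then at 98.2 and 93.3 CPM (0.71).

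Stromal genes were lower as a group. Of 35 stroma and matrix genes, 4 were higher (FN1, THY1, MFAP5 and ELN), the median was -0.35 and the animals did not overlap, all lower, in 21, against 18.4% of all genes. Their sums were 7810 and 8460 CPM in the 80-day and 6430 and 6450 CPM in the 100-day animals. COL12A1, a collagen on the surface of fibrils, was at 49.6 and 60.2 CPM and then at 21.2 and 26.2 CPM (-1.21 ± 0.33, unadjusted p = 0.00534 in edgeR's quasi-likelihood test), and was the list's member past the unadjusted p of 0.01. VCAN, a proteoglycan of fetal matrix, was at 26.1 and 33.1 CPM and then at 13.4 and 13.1 CPM (-1.16 ± 0.36). The fibrillar collagens differed less, COL5A2 by -0.72 from 125 and 145 CPM to 83.2 and 80.6 CPM, COL1A1 by -0.50 from 1040 and 1260 CPM to 675 and 947 CPM and COL3A1 by -0.33 from 2150 and 2370 CPM to 1820 and 1780 CPM. All of these were lower in both 100-day animals. Elastin was not, with ELN at 51.4 and 58.2 CPM and then at 53.2 and 111 CPM, nor was fibronectin, FN1, at 40.0 and 40.9 CPM and then at 45.5 and 55.6 CPM. Stellate and smooth muscle genes had a median of -0.17 (0.03 without 100-day animal 2) and endothelial genes of -0.08.

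The median differences of the blood cell lists rested mainly on 80-day animal 1. The 18 lymphoid genes with a row in the tables, of which 16 were tested, summed to 96.6 CPM in 80-day animal 1, to 26.0 CPM in animal 2, and to 20 and 14.9 CPM at 100 days. The median log2 fold change of the 16, -2.09, became 0.01 without 80-day animal 1. In 5 of the 16 the animals did not overlap, all lower (31.2%, against 18.4% of all genes). The B cell receptor component CD79B was at 17.8 CPM in 80-day animal 1 and at 0.0734, 0.106 and 0 CPM in the other 3 animals, and CCR7, a homing receptor of lymphocytes, at 5.92 CPM against 0.0734, 0.234 and 0.169 CPM. CD3G, a T cell receptor component, differed by age instead, at 10.3 and 9.46 CPM and then at 1.81 and 2.93 CPM (-2.04). CORO1A, an actin regulator of all leukocytes, was at 50.0 CPM in 80-day animal 1 and at 4.06, 5.81 and 3.32 CPM in the others. The myeloid list had a median of -0.29 with that animal and 0.20 without it. These genes were a small share of the counts, and their part in other differences was not tested.

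Genes of cell division differed little from the median gene. The DNA replication list had 11 of 38 higher and a median of -0.13, and the mitosis list 12 of 37 and -0.15, with animals not overlapping and lower in 15 and 9 genes, against 18.4% of all genes. Without 100-day animal 2 these medians were -0.09 and -0.05, beside -0.08 for all genes, and without 80-day animal 1 they were -0.08 and -0.02. TK1, thymidine kinase, was at 5.18 and 3.75 CPM at 80 days and at 1.81 and 2.20 CPM at 100 days (-1.15 ± 0.47). MKI67, the Ki-67 antigen, was at 19.1 and 22.1 CPM and then at 9.09 and 26.2 CPM, so its ages overlapped. TOP2A, a topoisomerase of dividing cells, was at 65.5 and 53.0 CPM and then at 41.7 and 51.8 CPM, and PCNA, the sliding clamp, at 76.1 and 71.3 CPM and then at 74.9 and 66.1 CPM. Of 27 progenitor genes and FGF targets 11 were higher, with a median of -0.04 that was -0.34 without 100-day animal 2 and -0.18 without 80-day animal 1. The FGF targets ETV4 and ETV5 were both lower, ETV5 at 8.03 and 9.23 CPM and then at 4.71 and 4.81 CPM, as was the feedback phosphatase DUSP6, at 22.6 and 22.3 CPM and then at 12.9 and 15.5 CPM (-0.66). SOX9, the progenitor and duct factor, was at 82.7 and 88.2 CPM and then at 92.2 and 105 CPM. Of 23 duct and epithelial genes 17 were higher, with a median of 0.32 that was -0.18 on total counts alone and 0.13 without 100-day animal 1. MUC1, the apical mucin, was at 27.8 and 35.1 CPM and then at 74.7 and 56.1 CPM (1.06), and CFTR itself at 27.7 and 30.1 CPM and then at 20.4 and 27.8 CPM (-0.26).

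Many intestinal and liver genes were high in 100-day animal 1 alone, while others such as CES1, MEP1B and PROC were also higher in animal 2. The animals of the 2 ages did not overlap, with 100 days higher, in 8 of 25 tested enterocyte and 10 of 24 tested hepatocyte genes, against 16.3% of all genes. FABP2, an intestinal fatty acid binding protein, was at 0 and 0.0122 CPM at 80 days, at 133 CPM in 100-day animal 1 and at 0 CPM in animal 2. APOA4, an apolipoprotein of chylomicrons, had no read at 80 days, 4828 reads (103 CPM) in 100-day animal 1 and 5 reads (0.0768 CPM) in animal 2. APOC3 was at 0.386 and 0.110 CPM and then at 128 and 0.338 CPM, APOB at 4.13 and 8.34 CPM and then at 77.4 and 5.17 CPM, and the calcium carrier S100G at 34.7 CPM in that animal and at 0.0138 CPM or less in the other 3. FABP1 was at 32.1 CPM there and at 0.110 CPM or less elsewhere, TFF3, a goblet cell peptide, at 17.6 CPM against 0.634 CPM or less, and the hepatocyte receptor ASGR2 at 18.6 CPM against 1.67 CPM or less. The other 100-day animal stood with the 80-day animals in each of these genes. The 31 enterocyte genes with a row in the tables summed to 742, 744, 1760 and 775 CPM in the 4 animals, and the median of the 25 tested, 0.44, became -0.10 without 100-day animal 1 and -0.12 on total counts alone. The hepatocyte median of 0.51 became 0.07 without that animal. The intestinal factor CDX2 did not stand apart, at 1.98, 2.79, 2.81 and 2.84 CPM, nor did the villus protein VIL1, at 110, 115, 119 and 109 CPM. Of the 84 genes higher at 100 days, 11 (13.1%) had 100-day animal 2 at less than 10% of animal 1, a share not computed over all genes. What part the material behind these genes had in the other differences of that animal was not tested. Among the leading genes, SYCP2L, HERPUD1, PROC and DNAJB1 were as high or nearly as high in 100-day animal 2, while CES1 and SMPDL3A were more than 2-fold higher in animal 1. Animal 1 was above animal 2 at 100 days in 20 of 22 acinar enzymes and 25 of 28 translocation genes, against 46.1% of all genes. At 80 days the counts were 9 of 22 and 24 of 28, so the translocation genes had this order at both ages.

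**Figure D4:**
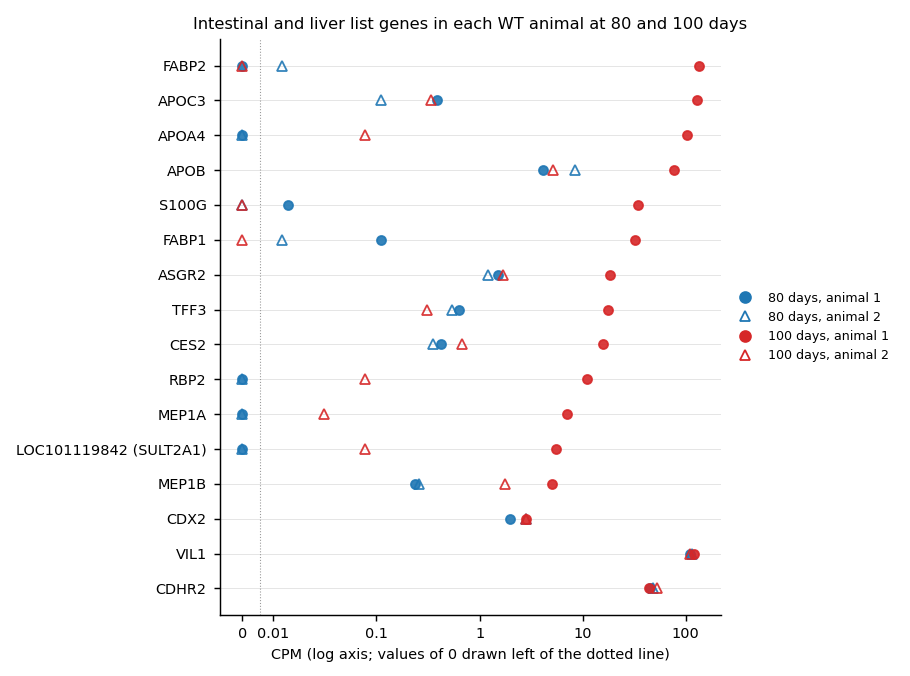
CPM on a log axis (x) of 16 intestinal and liver genes (y) in each of the 4 WT animals, with values of 0 drawn left of the dotted line. 100-day animal 1 stands alone at the right for genes such as FABP2 (133 CPM) and APOA4 (103 CPM), while the other 3 animals lie together.

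Other regulated programmes differed little. Circadian clock genes had a median of 0.28, which was -0.21 on total counts alone and -0.13 without 100-day animal 2. DBP, a clock output factor, was at 10.4 and 12.6 CPM at 80 days and at 25.2 and 20 CPM at 100 days (0.97, unadjusted p = 0.00847 in edgeR's quasi-likelihood test). Hypoxia genes had a median of 0.12 (-0.39 on total counts alone) and immediate early genes one of -0.07. CA3, a carbonic anhydrase of muscle and fat, was at 17.3 and 12.5 CPM and then at 61.5 and 46.6 CPM (1.86), while the 9 skeletal muscle genes together had a median of 0.03 (-0.46 on total counts alone). FABP7, a fatty acid binding protein of glia, was at 2.74 and 3.40 CPM and then at 105 and 23.6 CPM (4.39). The glial protein S100B was at 13.4 and 16.3 CPM and then at 23.2 and 23.1 CPM (0.64). The Schwann and neuronal list did not share this direction, with 8 of 13 genes lower, down to -1.94. Its animals did not overlap in 4 lower genes (30.8%, against 18.4% of all genes) and 3 higher genes (23.1%, against 16.3%). The list median of -0.23 was 0.15 without 80-day animal 2 and -0.52 without 80-day animal 1.

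The same step in the CFTR-/- animals was set beside the WT step in a model of all 20 libraries. No gene of 19522 passed the adjusted threshold for a difference between the 2 steps (0.0% called), 87 passed the unadjusted rule (0.446%) and 602 had an unadjusted p under 0.05 in edgeR's quasi-likelihood test (3.08%). The 87 were 37 without CFTR-/- 100-day animal 2 and 1104 without CFTR-/- 100-day animal 1. Of the 84 genes higher in WT, 48 (57.1%) had a positive CFTR-/- step, and of the 34 lower, 26 (76.5%) a negative one, so that 74 of 118 (62.7%) had the sign of WT, against 54.1% of all genes. CFTR-/- 100-day animal 2 stood apart, with 35973948 counted reads and a correlation of 0.876 with animal 1, and LOC101117443 was at 11100 CPM in it against 178000 CPM in animal 1.

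The gene groups did not all keep their order in CFTR-/- animals. The acinar enzymes had a CFTR-/- median of 0.72 with 18 of 22 higher, against 22 of 22 in WT. The heat shock list had a CFTR-/- median of -0.12 with 9 of 29 higher against 26 of 29 in WT, and 5 of its genes (HSPA6, DNAJB1, DNAJB4, HSPA1A and HSPA1B) had an unadjusted p under 0.05 for the difference between steps, where 3.08% of all genes did. HSPA6 was at 9.48 and 9.75 CPM in the 80-day and at 8.67 and 8.95 CPM in the 100-day CFTR-/- animals. HSPA1A had a CFTR-/- log2 fold change of -0.85 against 2.05 in WT, with an unadjusted p of 0.0176 for the difference in edgeR's quasi-likelihood test. The stroma list had a CFTR-/- median of 0.23 with 25 of 35 higher, and its sums were 7530 and 15200 CPM in the 80-day and 8610 and 21800 CPM in the 100-day animals. CFTR-/- 100-day animal 2, the highest of these, also had sums of 408 CPM for lymphoid, 1290 CPM for myeloid and 751 CPM for adipocyte genes, against 24.6, 168 and 144 CPM in animal 1, and of 15400 CPM for acinar enzymes against 234000 CPM. The difference between steps was refitted without this animal, as given above, but the CFTR-/- list medians were not, so its part in them was not tested. The endocrine factors had a CFTR-/- median of -0.74 with 0 of 17 higher. Their sums were 464 and 299 CPM in the 80-day and 375 and 120 CPM in the 100-day CFTR-/- animals. At 100 days animal 1 thus lay between the 80-day animals, and animal 2 below both. SYCP2L was at 4.70 and 0.603 CPM in the 80-day CFTR-/- animals and at 11.3 and 2.65 CPM at 100 days, a step of 1.42, and its difference from WT had an unadjusted p of 0.000247 and an adjusted p of 1.0 in edgeR's quasi-likelihood test. LOC101103227, with a CFTR-/- step of 0.83, had the smallest adjusted p for the difference, at 0.34.

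**Figure D5:**
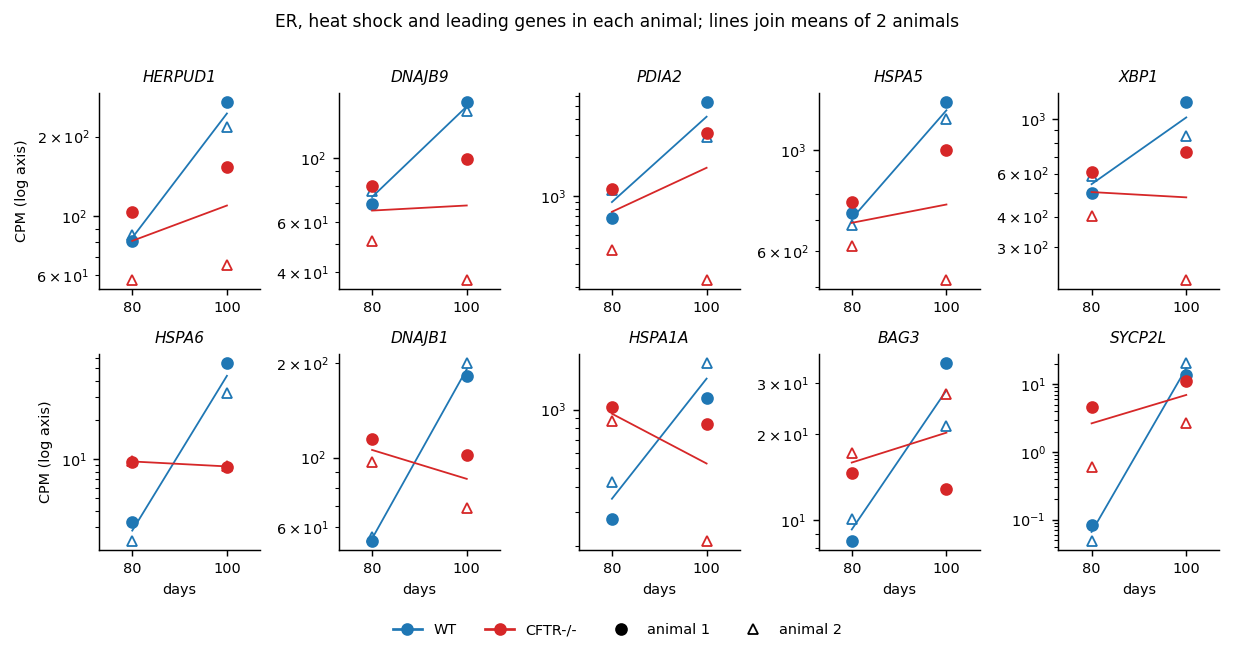
CPM (y, a log axis of its own in each panel) of 10 genes in the WT and CFTR-/- animals at 80 and 100 days (x), 1 point per animal. HSPA6 is at 3.29 and 2.37 CPM and then 55.3 and 32.2 CPM in WT, and between 8.67 and 9.75 CPM in all 4 CFTR-/- animals.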

How the data were processed

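RNA from tissue cut from the middle of the pancreas was made into directional libraries from oligo-dT-selected RNA and sequenced in 100 bp paired ends. Per the submitters' notes, the authors aligned reads with STAR 2.6 and counted genes with featureCounts 1.6.3 on Oar_v4.0. The deposited values are raw counts per gene. Strand and multimapping settings were not given in the sources used here. Reads of antisense or overlapping genes and of near-identical copies may therefore be shared.

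The members and gene lists were chosen with earlier results of these data known. Genes were kept by filterByExpr (minimum count 10, minimum total 15), scaled by TMM and fitted with edgeR 4.0.16 (quasi-likelihood, 10 WT libraries, 1 mean per age). A gene was called where its Benjamini-Hochberg adjusted p was 0.01 or less and its log2 fold change 0.58 or more in either direction. SE is the log2 fold change divided by the root of F. The step in the 2 genotypes was compared by an interaction term over all 20 libraries. With 2 animals per age, 24.5% of 200 genes changed in simulated data of this comparison (18350 genes) passed the adjusted rule, none of those changed 2-fold and 46.0% of those changed 16-fold. Each CPM holds counting error on top of the spread between animals, and 3 reads were 0.0367 to 0.0639 CPM in the 4 libraries.

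Genes named were the leading genes of each direction, key members of each list, the list members with the smallest p-values, the most abundant genes per kilobase, and other-tissue genes high in 1 animal. Of 8432 locus-numbered genes, 704 were named from the RefSeq gene table (573), the study's name pairs (93) or its tables (38). REG1A, XAF1, IFI6, INSIG1, CCR7, HSPA1B, DNAJB4 and MFAP5 were named after their values were seen. No sequence of this build was used here, so promoters were not searched. Alternatives were DESeq2, other scalings and filters, glmTreat, a replicate block, fewer or more libraries, leaving out each animal, and, chosen after seeing the data, the legacy quasi-likelihood fit.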

Additional observations from a re-analysis of the deposited data

How the results depend on the processing

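No gene passed the adjusted threshold between 80 and 100 days in edgeR's quasi-likelihood test, and the count was 20 with DESeq2's Wald test, 12 with edgeR's likelihood ratio test, 1 without a filter on low counts, 1 at an adjusted p of 0.05 and 0 to 1 when single animals were left out. The count of 118 genes at the unadjusted p was 258 with DESeq2, 260 with the likelihood ratio test, 73 with glmTreat, 233 in the 4 libraries alone, and 31 to 207 when single animals were left out. The cause was not tested. The deviations of same-numbered animals correlated at 0.23 between 80 and 100 days and from -0.418 to 0.23 over the 5 WT ages, so that the numbers do not pair the animals, and with a replicate block 84 genes passed the unadjusted p and 0 the adjusted p. For the difference between the CFTR-/- and WT steps, the adjusted count was 0 under all settings run, and the unadjusted count 33 to 1104 when single animals were left out. Without 100-day animal 1 the log2 fold change of FABP1 was -5.00, of S100G -2.15, of TFF3 -0.92 and of APOB -0.27, since that animal held most of their reads, and over all single animals left out the highest values were 10.13, 13.10, 4.90 and 3.62. Depth limits genes at a few reads, such as SYCP2L at 80 days, where 4 and 6 reads were counted. Relative to the median of all genes, no list of the 37 changed side on total counts alone, 5 did without either 100-day animal, 6 without 80-day animal 1 and 1 without 80-day animal 2.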
